A study of Drosophila melanogaster with 24 samples.

Results

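The genes described here belong to the c-Jun N-terminal kinase (JNK) pathway of Drosophila melanogaster. They are hep, bsk, puc, egr, kay, Jra, msn, slpr, Mmp1 and Gadd45, and their probes were found by old or current symbol in the annotation of the array. Of the 10 listed genes 9 had a named probe, with 26 probes among the 45220 probes of the array and its 12799 named genes. Mmp1, which codes for a matrix metalloproteinase, had no named probe and was not analysed here.

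JNK signalling is a kinase cascade that is switched on by the tumour necrosis factor ligand Eiger (egr), by cell stress and by morphogenetic cues. The Ste20 kinase Misshapen (msn) and the mixed lineage kinase Slipper (slpr) act above the JNK kinase Hemipterous (hep), which phosphorylates the JNK Basket (bsk). Basket activates the AP-1 transcription factors Kayak (kay, the fly Fos) and Jra (the fly Jun). In flies the pathway is known for dorsal closure of the embryo, wound healing, stress resistance and cell death. The phosphatase Puckered (puc) is a target that inhibits Basket, and puc and Mmp1 are commonly used as readouts of the pathway.

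Whole animals were compared in 6 groups of 4 labelled samples each, all in a w- background. At stage 17 there were wild type embryos from the cross of w1118 with w- (Wmix), mz mutant embryos that lack both the maternal and the zygotic Manf gene product (Manf delta96) and never hatch (21 to 24 h after egg laying), and embryos of mutant mothers rescued by a paternal wild type copy of Manf. The larvae were wild type (29 to 45 h after egg laying), zygotic Manf delta96 mutants that still received maternal product (29 to 50 h), and larvae overexpressing Manf from a UAS transgene under the 69B-GAL4 driver (29 to 44 h), which is active in epidermis and nervous system among other tissues but not in all. Larvae of a group were thus of several ages. Mutant larvae 2 and 4 ranged to a later age (50 h) than the wild type, whereas mutant larvae 65 and 66 ranged to 44 h. For wild type and rescued embryos the labels gave stage 17 without an age in hours, so their match in hours to the mz mutant embryos is not known from the labels. Manf codes for a secreted neurotrophic factor.

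Overexpressing larvae 69 and 70 stood apart, with correlations of 0.370 to 0.442 to the other 22 samples, which correlated with each other at 0.886 to 0.994. They were left out of what follows, so that overexpressing larvae were 2 samples, numbers 2 and 3. Sample numbers fell into a low series (1 to 4) and a high series (63 and above), and the deviations from group means were alike within a series and opposed between series, with median correlations of 0.22 for other numbers of the same series and -0.27 across series. Each of the other groups had 2 samples of either series. Every wild type larva carried the dye Cy3 and no mutant or overexpressing larva did, so that dye and genotype cannot be told apart there. No mz mutant embryo carried Cy3 and 3 of the 4 wild type embryos did, so that both were largely confounded in embryos too. Within both mutant groups the low series carried the Alexa dye and the high series Cy5. Series and dye, and in mutant larvae the age range as well, thus cannot be told apart within these groups. At the brightest Manf probe the wild type embryos lay between 11.10 and 11.48 on the log2 scale, the library labelled mz mutant embryo 1 lay among them at 11.29, and mz mutant embryos 4, 87 and 88 lay at 10.12, 9.48 and 9.14. The rescued embryos lay between 10.52 and 10.91 and the overexpressing larvae at 14.23 and 14.40. Mutant larvae 2 and 4 (10.67 and 10.46) lay below the wild type larvae (11.59 to 13.64), whereas the libraries labelled mutant larvae 65 and 66 (12.48 and 13.50) lay among them. The wild type larvae themselves split by series, with 11.65 and 11.59 in the low and 13.18 and 13.64 in the high series. Mutant larva 65 was thus below both wild type larvae of its own series, and mutant larva 66 lay between them. None of these Manf differences between groups passed the test, and the position of the probes relative to the deletion was not examined. At the second Manf probe, 43955, mz mutant embryo 1 (10.59) lay just below the lowest wild type embryo (10.67).

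The values below are log2 intensities as deposited, and a gene is given at its brightest probe, the one with the highest mean over the 22 samples, unless another probe is named. A difference was called when its adjusted p was under 0.01 in a limma model of the 6 groups, adjusted by Benjamini and Hochberg over all 45220 probes. The number after ± is a standard error for a difference and an SD for a group mean. Levels of different genes are not compared, because they come from different probes.

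Between mz mutant and wild type embryos 1 of the 9 genes was called, kay, which was higher in the mutant. Of all genes 5.66% were called in this comparison. Among the 26 probes 3 were called, 2 of kay and 1 of hep, against 4.19% of all probes. The 9 differences ran from -0.33 (egr) to 2.51 (Gadd45) with a median of 0.53, and 7 were above 0, where all genes had a median of -0.05 and 43.0% lay above 0. At 2 of the 9 genes, hep and puc, the groups did not overlap, as at 13.6% of all genes. Between mz mutant and paternally rescued embryos kay was again the 1 gene called (3.45% of all genes), with 2 probes called, both of kay (2.48% of all probes). The median of the 9 differences was 0.26 (all genes -0.08), and the groups did not overlap at kay and Gadd45, as at 10.7% of all genes. Both comparisons share the mz mutant samples. Between rescued and wild type embryos none of the 9 genes and none of the 26 probes was called (0.164% of genes and 0.146% of probes in all), and the differences ran from -0.27 to 0.31, with an unadjusted p under 0.05 in limma at 1 gene.

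In larvae none of the 9 genes was called in limma for any pair of groups. Between mutant and wild type larvae 2.3% of all genes and 1.87% of all probes were called, the 9 differences ran from -0.35 to 0.69 with a median of 0.42, 7 lay above 0, and 3 had an unadjusted p under 0.05. The groups did not overlap at hep, kay and slpr, as at 15.2% of all genes. Between overexpressing and wild type larvae 0.711% of genes and 0.683% of probes were called, and the members ran from -0.56 to 0.40, 0 of them at an unadjusted p under 0.05. Between mutant and overexpressing larvae these shares were 3.31% and 2.7%, and the members ran from -0.50 to 1.24, with 2 at an unadjusted p under 0.05. Between wild type larvae and wild type embryos 2 of the 9 genes, egr and puc, were called, both lower in larvae, where 22.9% of all genes were called. The probes called were 5 of 26, all 4 of egr and 1 of puc (16.1% of all probes), and the groups did not overlap at egr, puc and slpr, as at 37% of all genes. The difference of the mutant effect between larvae and embryos was called at none of the 9 genes (1.05% of all genes) and none of their probes (0.686% of all probes) in limma, and 0 of the 9 genes had an unadjusted p under 0.05. The plot of the differences shows the 9 genes side by side in the comparisons with called members and in mutant larvae.

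**Figure D1:**
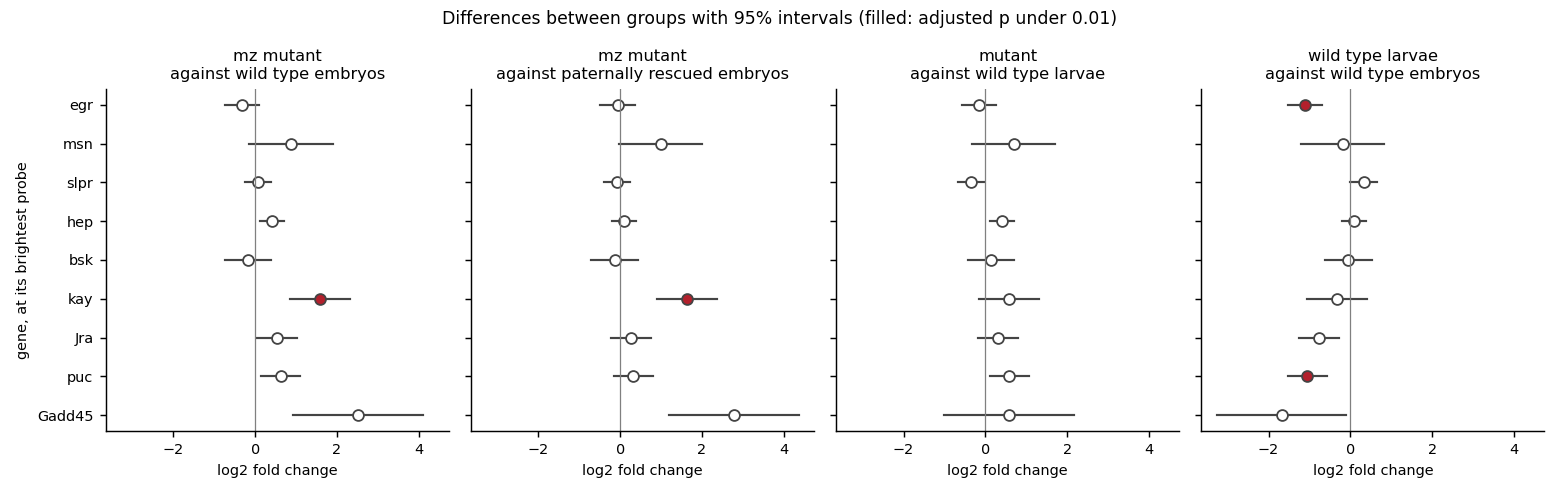
Differences in log2 intensity (x axis) with 95% intervals for the 9 measured JNK pathway genes at their brightest probes (y axis) in 4 comparisons, fitted in limma over 22 samples. Filled points are called at an adjusted p under 0.01: kay in both comparisons of mz mutant embryos, and egr and puc, lower in wild type larvae than in wild type embryos. The interval of Gadd45 is the widest in each panel.

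The ligand gene egr differed by stage. In wild type embryos it was measured at 12.92, 12.76, 12.72 and 12.41 (samples 1, 2, 82 and 83) and in wild type larvae at 11.62, 11.62, 11.60 and 11.54 (samples 1, 2, 63 and 65). Every larva lay below every embryo, and the larval values were much closer to each other than those of the embryos. The difference was -1.11 ± 0.20 (2.16-fold lower in larvae, adjusted p = 3.3e-04 in limma). At its other probes egr was lower in larvae by similar or larger amounts, with differences of -1.25, -1.28 and -1.61, all called, the last in 16 of the 22 fits that left out 1 sample. Within the low number series the difference at the brightest probe was -1.22 and within the high series -0.999, the latter not called with 2 samples against 2 (adjusted p = 0.038 in limma). The call held when any one sample was left out, with values from -1.21 to -1.03. With larvae 69 and 70 included, at which egr was listed at 6.93 and 6.74, the difference was the same but no longer called (adjusted p = 0.69).

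Within embryos no difference of egr was called. The mz mutant embryos were at 12.58, 11.94, 12.38 and 12.61 (samples 1, 4, 87 and 88), the rescued embryos at 12.76, 12.50, 11.77 and 12.75 (samples 1, 2, 66 and 84). Both ranges overlapped that of the wild type, and the lowest sample of each was far from the others. The difference between mz mutant and wild type was -0.33 ± 0.20 (95% interval -0.75 to 0.09). At 1 of the dimmer probes, 38814, the mz mutant embryos (9.29 to 10.06) all lay below the wild type (10.15 to 10.39), with a difference of -0.59 that was not called (adjusted p = 0.027). The mutant larvae were at 11.76, 11.57, 11.18 and 11.22 (samples 2, 4, 65 and 66), which spans the wild type larvae and is lower in the high series. The order of the group means of egr was wild type, rescued and mz mutant embryos, then overexpressing (11.93), wild type and mutant larvae (11.43). Of the neighbours in this order, overexpressing and wild type larvae alone did not overlap.

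The most upstream kinase genes measured, msn and slpr, were not called in any comparison. In wild type samples msn was higher in the high number series. In wild type embryos msn was at 10.21 and 10.38 in the low series and at 11.46 and 11.99 in the high series, and in wild type larvae at 10.27 and 10.07 in the low and 11.55 and 11.40 in the high series. Mutant (mz) embryos 1 and 4 were at 11.31 and 12.62, and embryos 87 and 88 at 12.21 and 11.39. In the low series the mutants were therefore above the wild type (difference 1.67), while in the high series the difference was 0.08, and the difference over both was 0.88 ± 0.49 (adjusted p = 0.36). In larvae the differences between mutant and wild type were 1.04 in the low and 0.34 in the high series. The second msn probe correlated with the brightest at 0.941 over the 22 samples, and the mutant larvae (11.15 to 11.54) were all above the wild type (9.99 to 10.90) there, by 0.82 ± 0.32 (adjusted p = 0.22). The order of the means of msn was mz mutant embryos (11.88 ± 0.64), mutant larvae (11.51), wild type embryos (11.01), rescued embryos (10.90), wild type larvae (10.82) and overexpressing larvae (10.27). All neighbours overlapped.

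The gene of the mixed lineage kinase, slpr, varied little. Its group means lay between 12.29 ± 0.16 (SD, n = 4) in mutant larvae and 12.65 ± 0.10 (n = 4) in wild type larvae. The mutant larvae were at 12.54, 12.21, 12.21 and 12.22, and the wild type larvae at 12.80, 12.62, 12.62 and 12.56. The groups did not overlap, with mutant larva 2 next to the lowest wild type, but the difference of -0.35 ± 0.16 was not called (adjusted p = 0.30). At the other slpr probes the values were -0.28 and -0.20, with overlapping groups. The 95% interval of the difference between mz mutant and wild type embryos was -0.26 to 0.39.

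The JNK kinase gene hep had higher means in both mutants than in wild type at 3 of its 5 probes. At the brightest probe the wild type embryos were at 12.33, 12.43, 12.24 and 12.50 and the mz mutant embryos at 12.54, 13.00, 12.67 and 12.92. All 4 mutants lay above all wild type samples, mutant embryo 1 only just. The difference of 0.41 ± 0.14 was not called (adjusted p = 0.078), whereas at probe 20343 a difference of 0.57 ± 0.13 was called (adjusted p = 0.0091). The latter call was kept in only 5 of the 22 fits that left out 1 sample. In larvae the wild type were at 12.61, 12.66, 12.23 and 12.35 and the mutants at 13.04, 12.93, 12.80 and 12.75. Again the groups did not overlap, and the low series was the higher one in both. The difference was 0.42 ± 0.14 (adjusted p = 0.12), and 0.51 at probe 20343 (adjusted p = 0.03). Within the series the larval values were 0.35 (low) and 0.48 (high), and in embryos 0.39 and 0.42. With the dye as a covariate they became 0.26 in larvae and 0.27 in embryos. The Cy3 effect behind the larval value came from embryos, because every wild type larva and no mutant larva carried Cy3. The larval value is therefore no test of the dye in larvae. The rescued embryos, at 12.59, 12.44, 13.04 and 12.69, overlapped both other embryo groups. Their mean was above wild type at the same 3 probes as in the mutants, by 0.31 at the brightest (adjusted p = 0.97 in limma). Group means at that probe were 12.38 in wild type, 12.69 in rescued and 12.79 in mz mutant embryos, so that a higher hep mean was not particular to the mutants. The remaining hep probes, 41526 and the dimmest, 28022, differed by 0.22 and -0.04 in embryos and by -0.08 and -0.39 in larvae, without a call. Correlations between hep probes ran from -0.15 to 0.891 over the 22 samples.

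The gene of the JNK itself, bsk, showed no called difference at either probe. The wild type embryos were at 12.56, 12.37, 13.47 and 13.20 and the mz mutant embryos at 12.62, 12.86, 12.91 and 12.52. The wild type samples of the high series were the highest, and all mutants lay below them. The difference was -0.18 ± 0.27 (95% interval -0.75 to 0.39). In larvae it was 0.14 (-0.43 to 0.71), with the mutants at 12.62, 12.61, 13.39 and 13.31 and the wild type at 12.58, 12.68, 13.06 and 13.07, so that bsk was higher in the high series in both groups. Between wild type larvae and embryos the value was -0.05 (-0.62 to 0.52).

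The Fos gene kay was the member called in mz mutant embryos, where it was higher than in both other groups of embryos. In wild type embryos it was at 12.64, 12.04, 11.66 and 12.01 and in rescued embryos at 12.01, 12.43, 11.91 and 11.82. In mz mutant embryos it was at 12.47, 14.92, 13.78 and 13.54. Mutant embryos 4, 87 and 88 were above all other embryos. The library labelled mz mutant embryo 1 lay within the wild type range of kay and above every rescued embryo. It was also the one in the wild type range at the brightest Manf probe, though not at the second. kay was 1.59 ± 0.35 higher in mz mutant than in wild type embryos (3.00-fold, adjusted p = 0.0067 in limma) and 1.63 ± 0.35 higher than in rescued embryos (3.10-fold, adjusted p = 0.0081). Without mz mutant embryo 1 the differences were 1.99 and 2.04. In whole animals, more cells that express a gene and more RNA per cell cannot be told apart.

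At the second brightest of its probes, 44148, kay gave the same picture with less spread. The mz mutant embryos were at 12.22, 14.49, 13.66 and 13.29, the wild type embryos between 11.38 and 12.09 and the rescued embryos between 11.43 and 11.87. All mutants lay above all other embryos, although mutant embryo 1 was only just above the wild type. The differences were 1.66 ± 0.31 to wild type (adjusted p = 0.0019) and 1.74 ± 0.31 to rescued embryos (adjusted p = 0.002). Among the other probes, 7430 and 20130 differed by 1.43 and 1.99 from wild type without being called (adjusted p = 0.14 and 0.11), and 2589, which is brighter than only 36.2% of all probes, by -0.11. The 5 probes correlated with each other between -0.64 and 0.978 over the 22 samples. Probe 20130 split by series, with wild type embryos at 10.67 and 10.45 in the low and 11.60 and 12.79 in the high series, while 7430 split the opposite way (10.86 and 10.40 against 9.17 and 8.51). The plot of kay by probe shows these patterns.

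**Figure D2:**
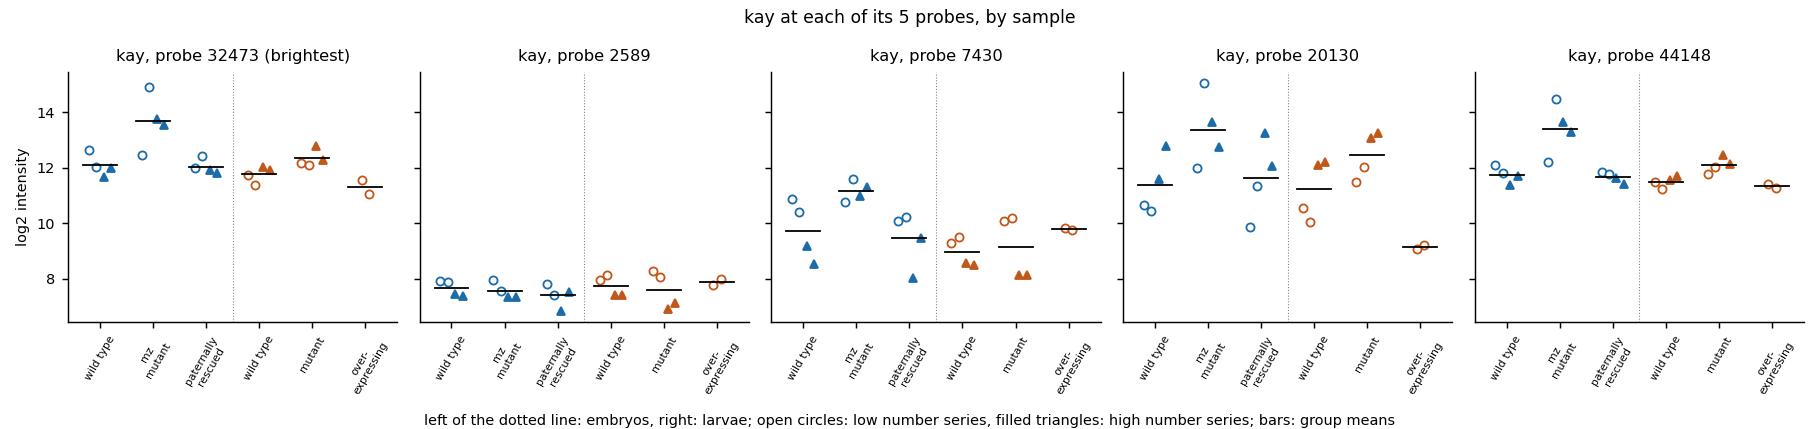
Log2 intensity (y axis) of kay at its 5 probes in each of the 22 samples by group (x axis), with the number series marked and bars for group means. The mz mutant embryos are highest on average at probes 32473, 44148, 7430 and 20130, with group means of 13.68, 13.41, 11.16 and 13.37, and not at the dim probe 2589.

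The kay call depended on several samples and settings. At the brightest probe it was lost against wild type when wild type embryo 2, 82 or 83 or mz mutant embryo 4, 87 or 88 was left out (differences from 1.17 to 1.63, adjusted p up to 0.029), and against rescued embryos in 16 of the 22 such fits (adjusted p up to 0.029). At probe 44148 both calls held in all 22 (adjusted p up to 0.0095 and 0.0098). Within the low series kay was 1.35 higher in mutant than in wild type embryos (adjusted p = 0.25) and within the high series 1.83 higher (adjusted p = 9.5e-04). With the dye as a covariate the value stayed at 1.58 but was not called (adjusted p = 0.10, and 0.046 at probe 44148). No mz mutant embryo carried Cy3, so the Cy3 effect in this fit came from wild type and rescued embryos. It rested on wild type embryo 1 (Cy5) and rescued embryo 2 (Cy3) against the others of their groups. The value is therefore a weak test of the dye. With larvae 69 and 70 in the model, where kay was listed at 7.06 and 6.95, the adjusted p was 0.66, and with the replicate number as a block it was 0.011.

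In larvae kay was not called, although its groups did not overlap. The wild type larvae were at 11.75, 11.37, 12.02 and 11.94, the mutants at 12.16, 12.12, 12.80 and 12.29 and the overexpressing larvae at 11.54 and 11.05. Every mutant lay above every wild type and overexpressing larva, and the lowest value was from an overexpressing larva. The difference between mutant and wild type larvae was 0.57 ± 0.35 (95% interval -0.16 to 1.31, adjusted p = 0.56), and between mutant and overexpressing larvae 1.05 ± 0.43 (adjusted p = 0.16). The mutant effect in larvae minus that in embryos was -1.01 ± 0.50, which was not called (adjusted p = 0.52). Larval mutants differ from mz mutant embryos in stage and in maternal product, which cannot be told apart. The order of the kay means was mz mutant embryos (13.68 ± 1.00), mutant larvae (12.34 ± 0.31), wild type embryos (12.09 ± 0.41), rescued embryos (12.04 ± 0.27), wild type larvae (11.77 ± 0.29) and overexpressing larvae (11.30 ± 0.35). Neighbours overlapped throughout this order.

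The Jun gene Jra, the partner of kay in AP-1, was not called in any comparison. In wild type embryos it was at 14.20, 13.78, 13.59 and 13.32 and in mz mutant embryos at 13.90, 13.99, 14.67 and 14.45. The low series mutants lay within the wild type range and the high series mutants above it. The difference was -0.04 in the low series, 1.10 in the high series (adjusted p = 0.0055) and 0.53 ± 0.23 over both (adjusted p = 0.20). The second probe differed likewise, by 0.08 in the low and 1.13 in the high series. Wild type larvae were at 13.05, 13.39, 12.67 and 12.71. A single larva, number 2, reached the range of the wild type embryos. The difference by stage was -0.77 ± 0.23 (adjusted p = 0.02), and -1.28 ± 0.43 at the second probe (adjusted p = 0.037), where the groups did not overlap.

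The target gene puc, whose phosphatase product acts back on Basket, was lower in larvae. In wild type embryos puc was at 13.11, 13.21, 13.05 and 12.67 and in wild type larvae at 12.13, 12.08, 11.79 and 11.79. All larvae were below all embryos. The difference was -1.06 ± 0.23 (2.09-fold lower, adjusted p = 0.0016 in limma), with -1.06 in the low series (adjusted p = 0.02) and -1.07 in the high series (adjusted p = 0.043). It held with any one sample left out. At the second probe, 15625, the groups overlapped and the difference was -0.48 (adjusted p = 0.25).

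In the mutants puc was above wild type on average at both stages, without a call. In mz mutants puc was at 13.28, 14.19, 13.45 and 13.63 and in rescued embryos at 13.48, 13.25, 12.78 and 13.77. All mz mutants were above all wild type embryos, as were 3 of the 4 rescued embryos. The difference between mz mutant and wild type was 0.63 ± 0.23 (95% interval 0.15 to 1.10, adjusted p = 0.10), and 0.32 ± 0.23 to rescued embryos. At probe 15625 the difference to wild type was 1.16 in the low and -0.05 in the high series. The mutant larvae were at 12.83, 12.79, 12.50 and 11.99 and the overexpressing larvae at 12.22 and 11.91. Mutant larvae 2, 4 and 65 were above all wild type larvae, with a difference of 0.58 ± 0.23 (adjusted p = 0.22). The order of the puc means was mz mutant embryos (13.64 ± 0.39), rescued (13.32 ± 0.42) and wild type embryos (13.01 ± 0.24), then mutant (12.53 ± 0.39), overexpressing (12.07 ± 0.22) and wild type larvae (11.95 ± 0.18). Neighbours in it overlapped, wild type embryos and mutant larvae included.

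Gadd45, which codes for a small stress-induced protein, was measured at a single probe and had the largest differences of the members between mz mutant and other embryos, with values widely spread among wild type and rescued embryos. The wild type embryos were at 13.67, 10.90, 11.80 and 10.00 and the rescued embryos at 10.03, 13.30, 9.91 and 12.05. The mz mutant embryos were at 13.51, 15.02, 13.78 and 14.10. Mutant embryos were above all rescued embryos, and all but the library labelled mz mutant embryo 1 were above wild type embryo 1. The differences were 2.51 ± 0.76 to wild type (5.70-fold, 95% interval 0.93 to 4.09, adjusted p = 0.043) and 2.78 ± 0.76 to rescued embryos (6.86-fold, adjusted p = 0.033), neither called. Each was called in only 1 of the 22 fits that left out 1 sample, the fit without the highest sample of the other group. These were the fits without wild type embryo 1 (3.20, adjusted p = 0.0093) and without rescued embryo 2 (3.44, adjusted p = 0.0089), respectively. Over all such fits the adjusted p reached 0.16 and 0.12 in limma. Wild type larvae were at 9.77, 10.17, 10.02 and 9.66, and mutant larvae at 10.87, 11.97, 9.64 and 9.44. The mutants of the low series were above the wild type and those of the high series below it. Mutant larvae of the 2 series also differed in dye and age range. Those of the high series, 65 and 66, lay within the range of all wild type larvae at the brightest Manf probe. Of these, 65 was below the wild type larvae of its own series. The cause of this split was not tested. The plot of all members by sample shows this spread beside the much narrower one of hep and slpr.

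**Figure D3:**
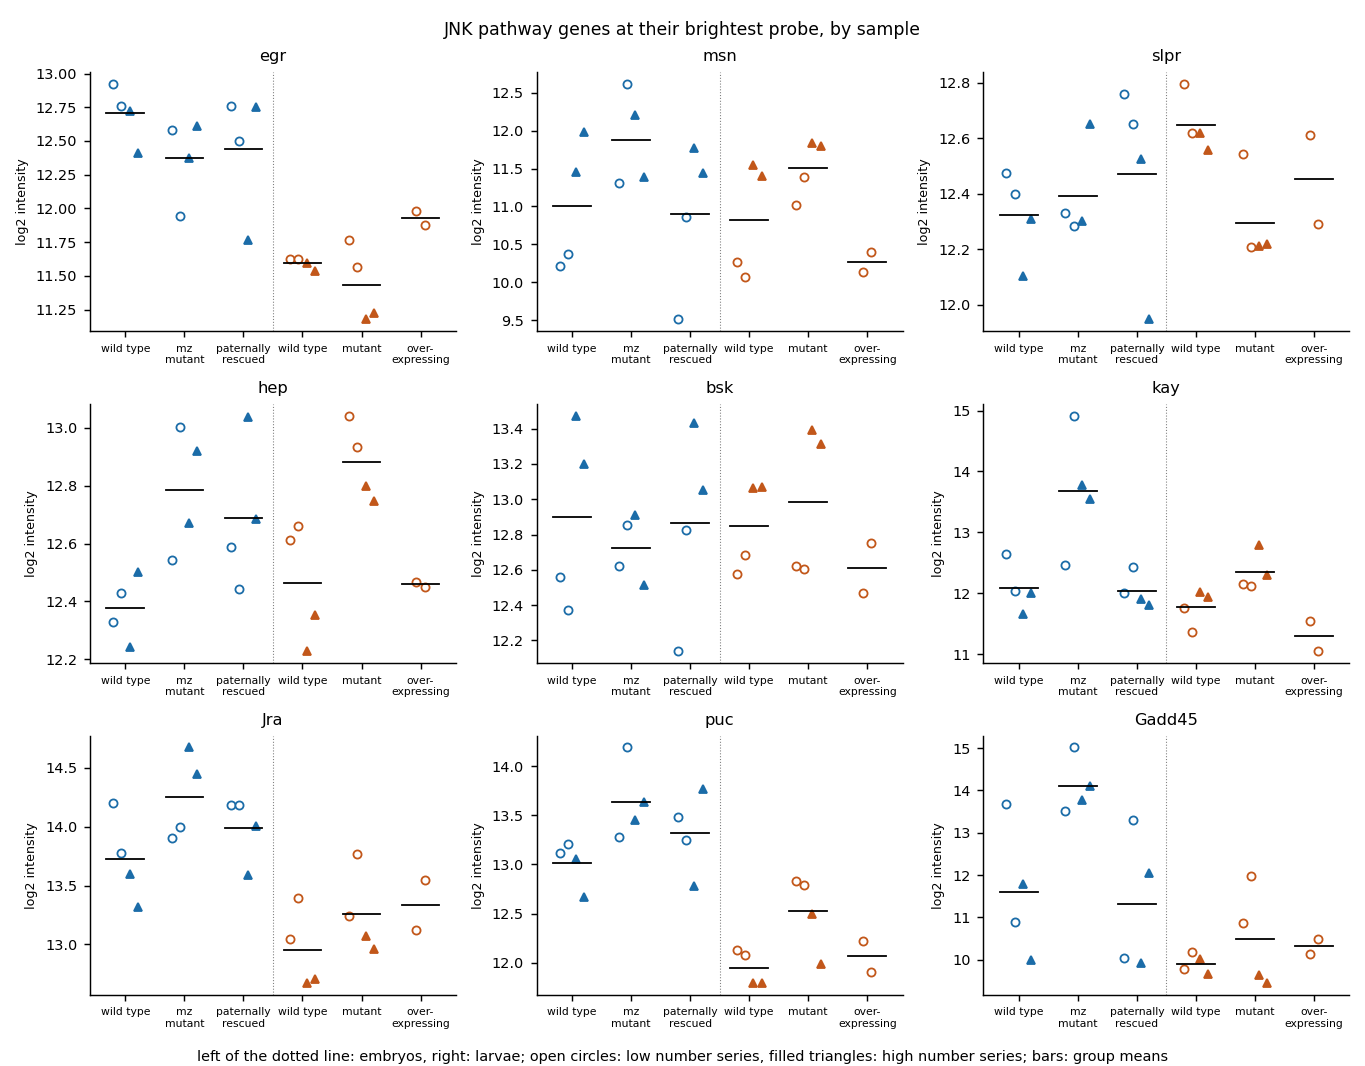
Log2 intensity (y axis, its range set for each gene) of the 9 measured JNK pathway genes at their brightest probes in the 22 samples by group (x axis), with bars for group means. The mz mutant embryos 4, 87 and 88 stand above all other embryos at kay (13.54 to 14.92), egr and puc are lower in wild type larvae than in wild type embryos, and msn and bsk are higher in the high number series than in the low one in wild type samples.

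The genes whose brightest probes were most like puc over the 22 samples, by Pearson's r, were RhoGEF3 (0.949), Cdc50 (0.941), CG18635 (0.936), Dif (0.934) and CG30269 (0.931). These values are a description over samples that share stage, series and dye.

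Other genes of the pathway were taken from 3 lists. Of 26 upstream and core genes 16 had a named probe, and 1 was called between mz mutant and wild type embryos, in the direction of a higher level in the mutant, where 5.66% of all genes were called and 3.36% called higher. This was grnd, which codes for the Eiger receptor Grindelwald. It lay between 12.23 and 12.83 in mz mutant embryos, between 11.34 and 11.60 in wild type and between 11.53 and 11.76 in rescued embryos. The mutants were above both other groups without overlap, by 1.05 ± 0.20 (adjusted p = 0.002) and 0.91 ± 0.20 (adjusted p = 0.0082). When single samples were left out, the call against wild type was lost without mz mutant embryo 4 (adjusted p = 0.011). That against rescued embryos was lost in 14 of 22 fits (adjusted p up to 0.039). Over all 39 alternatives the grnd call was lost in 7 against wild type and in 20 against rescued embryos. With the dye as a covariate, or with all 24 samples, 0 of the 16 genes were called in either comparison. The other Eiger receptor gene, wgn, differed by -0.23 from wild type and the scaffold gene POSH by 0.96 (adjusted p = 0.024, or 0.0062 and called with a block for series), and the median over the 16 genes was 0.06 (all genes -0.05).

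Of 20 JNK targets and effectors 13 had a named probe, and 3 were called between mz mutant and wild type embryos, all higher in the mutant, where 3.36% of all genes were called higher. They were Mmp2, a matrix metalloproteinase, and the cytokine genes upd1 and upd2. The median of the 13 differences was 1.48, with 9 above 0. The list was chosen with earlier results of these data known, so that this median describes the list and is not an independent test. Mmp2 lay between 12.18 and 13.27 in mz mutant, between 10.84 and 11.72 in wild type and between 10.83 and 11.57 in rescued embryos. Again the mutants did not overlap with either group. The difference of 1.48 ± 0.28 to wild type (adjusted p = 0.0019) was 0.90 in the low and 2.07 in the high series. upd1 lay between 9.14 and 10.70 in mz mutant and between 7.89 and 8.39 in wild type embryos (difference 1.83 ± 0.25, adjusted p = 1.1e-04). upd2 lay between 8.45 and 9.09 in mz mutant and between 6.83 and 7.23 in wild type embryos. Its difference was 1.65 (adjusted p = 7.3e-05 in limma). The upd2 means of wild type (7.08) and rescued embryos (7.01) were near 7.04, the limit below which 25% of probe means lay. The wild type embryo mean of upd1 was 8.13. No signal over background was used, so the sizes of these differences from dim levels are uncertain. Targets above 1 but not called were Ilp8 (2.01), Ets21C (1.73), scaf (1.70), cher (1.50) and Timp (1.22), with adjusted p from 0.017 to 0.072. Those of Ets21C, scaf and Timp were called with the number series as a block (adjusted p = 0.0053, 2.9e-04 and 0.0023). With the dye as a covariate 2 of the 13 targets were called against wild type, and with all 24 samples 1. Over 39 alternatives the Mmp2 call was lost in 6 against wild type and in 10 against rescued embryos. The calls of upd1 and upd2 were lost in 4 and 1 of them in either comparison. Against rescued embryos Mmp2, upd1 and upd2 were called as well, with a list median of 0.96. With the series block Ets21C (1.85) and Timp (1.16) were called there too (adjusted p = 0.0046 for both), and the Mmp2 call was lost without mz mutant embryo 4, 87 or 88 or rescued embryo 66 or 84 (adjusted p up to 0.017).

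In mutant larvae none of the genes of either list was called in limma, with an unadjusted p under 0.05 at 2 upstream and core genes and 0 targets, and the list medians were -0.07 for upstream and core genes and 0.23 for targets. At upd1 the mutant effect in larvae minus that in embryos was -2.12 ± 0.35, which was called (adjusted p = 0.0028). By stage 4 targets were lower in wild type larvae than in wild type embryos, Atf3 (-1.17), Ets21C (-1.98), Ilp8 (-3.12) and foxo (-1.45), and of the upstream genes Mekk1 (-0.97), where 22.9% of all genes were called, 10.0% lower and 12.9% higher. The Mekk1 call was kept in only 6 of the 22 fits that left out 1 sample (adjusted p up to 0.035), that of Ets21C in 18 (lost without wild type embryo 1 or 2 or wild type larva 63 or 65) and that of foxo in 17 (lost without wild type embryo 82 or 83 or wild type larva 1, 2 or 65). No gene of either list was called higher in wild type larvae than in wild type embryos.

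**Figure D4:**
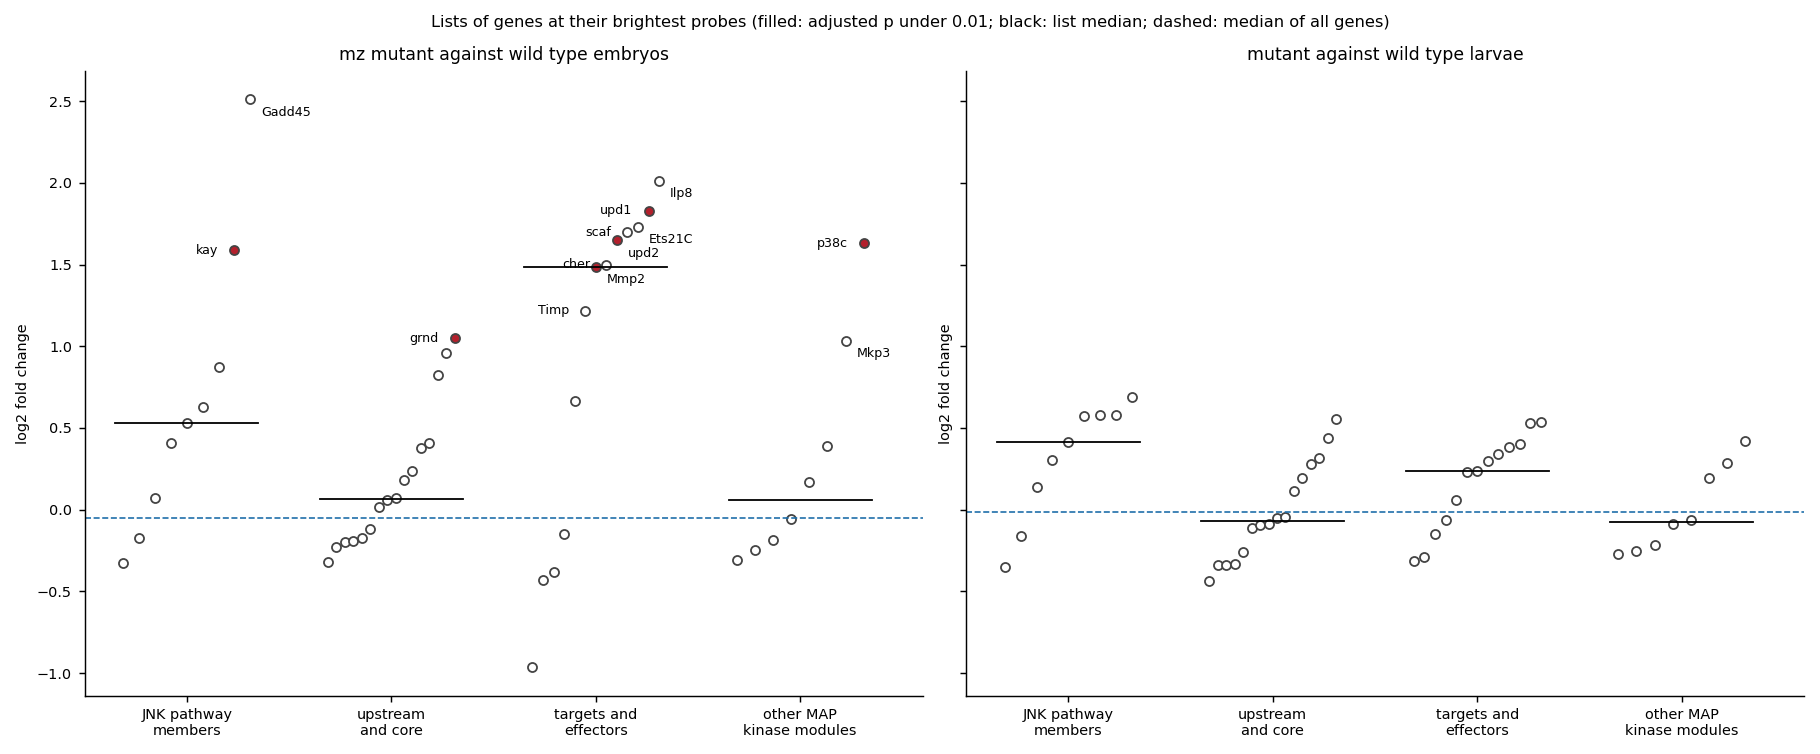
Log2 fold changes (y axis) of the measured members and of the genes in 3 further lists (x axis) at their brightest probes, in mz mutant against wild type embryos (left) and mutant against wild type larvae (right). Filled points are called at an adjusted p under 0.01 and black bars are list medians. In embryos these are 0.53, 0.06, 1.48 and 0.06 from left to right, with the median of all genes at -0.05 (dashed). Members and lists were chosen with earlier results of these data known, so that the medians are descriptions.

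Of 12 genes of other MAP kinase modules 8 had a named probe, and p38c, which codes for a p38 kinase, was called against wild type in mz mutant embryos (5.66% of all genes). Its values lay between 9.84 and 11.56 there and between 9.03 and 9.45 in wild type embryos. The difference was 1.63 ± 0.26 (adjusted p = 5.2e-04) and stayed at 1.43 or more when a sample was left out. Against rescued embryos it was 1.54 (adjusted p = 0.0013). Over 39 alternatives the call against wild type was lost in 7 (lowest difference 1.26, highest adjusted p 0.13 in limma). The call against rescued embryos was lost in 5 (highest adjusted p 0.15). With the dye as a covariate 0 of the 8 genes were called against wild type. The ERK kinase gene Dsor1 (1.01) and the p38 kinase kinase gene lic (0.86) were higher, and p38a (-0.95) was lower in wild type larvae than in wild type embryos, all called (22.9% of all genes), lic not without wild type embryo 82 or wild type larva 1 or 2 (adjusted p up to 0.011).

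Tissue markers were read beside the kay difference. Of 5 haemocyte markers, Hml was higher (1.85) and eater lower (-0.91) in mz mutant than in wild type embryos, both called, while the mean over the 5 lay between 10.8 and 11.0 in mz mutant and between 10.6 and 11.0 in wild type embryos. In mutant larvae Hml (1.41) and eater (-0.87) were called in the same directions, where kay was not. A higher Hml was not particular to the mutants. Rescued embryos (11.20 to 11.70) lay above wild type embryos (9.78 to 10.81), and overexpressing larvae (11.81 and 11.82) above wild type larvae (10.35 to 10.98). None of the measured markers of neurons (3 of 4), muscle (2 of 4), midgut (5 of 5), fat body (4 of 5) and trachea (3 of 5) was called in limma in mz mutant embryos, where an unadjusted p under 0.05 was found at 1 midgut, 2 fat body and 2 trachea markers and at 0 markers of neurons and muscle. The part of haemocytes in the kay difference was not tested.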

How the data were processed

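Total RNA of whole embryos and larvae was amplified, labelled with Cy3, Cy5 or an Alexa dye and hybridised to Agilent fruit fly arrays. The authors took the median intensity of each spot with GenePix Pro and preprocessed it in R with limma; background correction and between-array method are not given in the sources used here. The deposited values are on a log2 scale (6.05 to 15.56), with sample medians of 9.15 to 9.16, and were used without further scaling. Log base and normalization were read from the values. Depth does not apply to arrays, and the number of arrays limits the precision.

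Probes were named from the platform annotation, updated by gene identifier: 29872 probes carry 1 gene, 0 several and 15348 none. Columns mapped to no sample numbered 0. A linear model with 6 group means was fitted to all probes over 22 samples in limma 3.58.1 (R 4.3.3), with moderated statistics, Benjamini-Hochberg adjustment over 45220 probes and a threshold of 0.01, after the authors' methods. Replicates were separate samples by the labels, whereas the methods mention fewer independent samples for each genotype, so that the p values cover only the spread seen among them, part of which can be technical.

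The members, lists and named genes (list genes called or among the largest 3 of a list, the 5 genes most like puc) were chosen with earlier results of these data known. Outside this rule, wgn was named as the second Eiger receptor and Timp among the targets with a difference above 1. Jra, hep and others are members. Alternatives were the threshold, all 24 samples, added normalization, dim probes left out, dye, number series or number as a block, single series, array weights, smaller fits, other gene summaries and each sample left out. The fit was tested on simulated data. Same-numbered samples of different groups had deviations that correlated between -0.23 and 0.54 (19 pairs), so that numbers were not taken as pairs.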

Additional observations from a re-analysis of the deposited data

Results flagged for a closer look

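In tests of 45 groups of 4 samples at the brightest probes of the members, 2 samples lay far from the other 3 of their group, both at slpr: mz mutant embryo 88 at 12.65 and mutant larva 2 at 12.54. Chance flags about 1 in 20 groups, and these 2 are not above that share.

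The mutant effect on upd1 differed between mutant larvae and mz mutant embryos, which differ in stage and in maternal product. These cannot be told apart. The call was lost in 4 of 37 alternatives (adjusted p up to 0.22 in limma). The effect in larvae minus that in embryos was -2.12 on the log2 scale (adjusted p = 0.0028 in limma, over 22 samples), with the mz mutant embryos above the wild type and the mutant larvae not.

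Overexpressing larvae 69 and 70, which entered only the models of all 24 samples, had values more than 1 log2 unit above every wild type larva at 3 member probes. At probe 13196 of hep they were at 14.67 and 14.50, at probe 38814 of egr at 10.80 and 12.24, and at probe 33759 of slpr at 12.88 and 13.28. At the brightest probe of kay the same samples were listed at 7.06 and 6.95, far below all others. No cause was tested.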

How the results depend on the processing

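Over 39 alternatives or fewer, 30 of 33 differences of members and called list genes that were more than 2 standard errors from 0 kept their direction, and in 1149 of 1274 values also their side of the threshold. These differences were picked by their size in the same data. Leaving out a sample of a group outside a comparison cannot change its difference, so that agreement in direction was partly fixed in advance. The exceptions in direction were hep between mutant and overexpressing larvae with the mean of its probes (-0.045 in place of 0.42), egr between the same groups with all 24 samples, also with a block for the number series (2.05 in place of -0.50), and Jra between mz mutant and wild type embryos within the low series (-0.037 in place of 0.53); their causes were not tested. Added normalization, centring and leaving out dim probes changed no count by more than 1.5 times.

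In the order mz mutant and rescued against wild type embryos, mz mutant against rescued embryos, mutant and overexpressing against wild type larvae, mutant against overexpressing larvae, wild type larvae against embryos, and the difference of mutant effects, 1895, 66, 1123, 845, 309, 1223, 7270 and 310 probes were called. They became 4026, 206, 2964, 1772, 841, 3250, 10689 and 756 at an adjusted p of 0.05, and 282, 6, 127, 70, 240, 1569, 1689 and 23 with all 24 samples. With the dye as a covariate they were 431, 21, 872, 101, 33, 763, 6832 and 245, with series as a block 3061, 293, 2060, 1378, 484, 1568, 9273 and 557, with both (added after seeing the data) 896, 109, 1916, 259, 81, 937, 9307 and 607, and with the series block and all 24 samples (also added) 353, 7, 187, 103, 515, 2751, 2174 and 31. In the models with dye over 22 samples the Cy3 effect came from embryos, and the larval counts against wild type rest on it. Array weights gave 2691, 134, 1310, 3032, 1160, 2696, 10846 and 790. Within the low series 26, 49, 5, 389, 212, 1578, 5320 and 2 were called, and within the high series, which holds no overexpressing larva used here, 3321, 152, 3073, 497, 6228 and 700 in the other 6. Fitting embryos and larvae apart gave 664, 17, 397, 977, 302 and 1558 in the first 6, and fitting the 2 groups alone 234, 10, 105, 645, 164, 128 and 6949 in the first 7. Leaving out a sample gave 1001 to 3503, 26 to 111, 557 to 2700, 500 to 1058, 94 to 389, 278 to 1441, 5981 to 7632 and 183 to 970.

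With the replicate number as a block 1930, 113, 1158, 1119, 432, 1448, 8292 and 474 probes were called, and the kay calls in both embryo comparisons were lost at its brightest probe (1.50 and 1.56, adjusted p = 0.011 and 0.012 in limma), so that 0 and 0 member genes were called there in place of 1 and 1. The numbers are shared by samples without a stated pairing.

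Of the member genes called, 1 against wild type and 1 against rescued embryos, 0 and 0 were left with all 24 samples, with the dye as a covariate (alone or with the series block), within the low series, with embryos fitted apart, with the 2 groups alone and with the series block over all 24 samples. At an adjusted p of 0.05 they were 2 and 2, with Gadd45 added. Within the high series 2 were called against wild type, kay and Jra. Leaving out a sample gave 0 to 2 in both. Of the 2 called between stages, 1 was left within the low series and 0 within the high series, with all 24 samples, and with these and the series block, where 1 gene, kay, was called between mutant and overexpressing larvae. No alternative called a member between rescued and wild type embryos, mutant or overexpressing and wild type larvae, or in the difference of mutant effects. No signal over background was used, which limits what can be said of dim probes.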
